A study of Bos taurus with 16 samples.

Results

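The 7 genes described here encode contractile proteins whose isoforms are exchanged as skeletal muscle matures. They are MYH3 and MYH8, the embryonic and neonatal myosin heavy chains, MYL4 and MYL6B, essential myosin light chains, ACTC1 and ACTA1, the cardiac and skeletal α-actins, and TNNT2, the cardiac troponin T. They were chosen by name from the 34109 genes of the count and expression tables, and all 7 were listed and passed the filter on low counts. Round and sirloin muscle came from the same 8 newborn Hanwoo calves, which the paper's methods describe as male and sampled before colostrum. Cows of the control group were fed at 100% of their requirement and cows of the treated group at 150% from mid to late pregnancy, and each diet gave 4 calves, so that round control, round treated, sirloin control and sirloin treated held 4 libraries each. No calf was fed either diet itself, no fetal or older muscle was sequenced, and each muscle was sampled at 1 age, so the data give the level of these isoforms at birth and not its course.

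During fetal growth, a muscle fibre first builds its sarcomeres from embryonic and neonatal isoforms. Myosin heavy chain is the motor of the thick filament, and the essential light chains wrap its lever arm. Thin filaments are made of α-actin and carry the troponin complex, in which troponin T binds tropomyosin. As the muscle matures the adult genes take over: MYH7 in slow fibres, MYH2, MYH1 and MYH4 in fast fibres, MYL1 in fast and MYL3 in slow fibres, ACTA1 in place of ACTC1, and TNNT1 and TNNT3 in place of TNNT2. ACTA1 is therefore the mature partner among the 7 genes, and MYL6B is also a light chain of adult slow fibres and of non-muscle cells. Several of these genes carry cardiac names because the adult heart keeps ACTC1 and TNNT2 and its atria keep MYL4.

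The deposited counts summed to 44473011 to 72446933 reads per round library and to 44863173 to 72165291 per sirloin library. Levels below are the authors' TPM, which is per length and can be compared between genes, whereas fold changes were computed from the read counts. Skeletal muscle was marked by CKM, the muscle creatine kinase, at 7322 to 22180 TPM. Of the cardiac markers, NPPA, NPPB and MYBPC3 had 0 counts in all 16 libraries, NKX2-5 had at most 3 and MYL7 at most 2, while TNNI3 reached 10.02 TPM and MYH6, whose sequence is close to that of MYH7, 63.5 to 562 TPM. The 4 adipocyte markers summed to 3678 TPM in sirloin treated replicate 4 and to at most 14.4 TPM in any round library. In round muscle, COL1A1, a collagen of connective tissue, was highest in control replicate 2 at 703 TPM against a median of 66.1, and that calf also had the deepest library of each muscle. What part adipose or connective tissue had in the values below was not tested. In whole tissue, fewer cells of a type and less RNA per cell cannot be told apart. The MYH genes resemble each other, as do ACTA1 and ACTC1, and how reads that match several of them were assigned is not given in the sources used here, so the small levels beside a large paralog are uncertain.

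ACTA1 was by far the most abundant of the 7 genes, with a median of 28270 TPM over the 16 libraries. MYL6B followed at 903 TPM, ACTC1 at 205, MYH8 at 137, MYH3 at 39.6, TNNT2 at 3.36 and MYL4 at 1.08 TPM. Along this order, ACTA1 exceeded MYL6B, MYH8 exceeded MYH3, MYH3 exceeded TNNT2 and TNNT2 exceeded MYL4 in 16 of 16 libraries. The middle of the order did not hold throughout: MYL6B lay above ACTC1 in 13 of 16 libraries and ACTC1 above MYH8 in 11 of 16. In round muscle alone, ACTC1 had the higher median of the pair, 371 against 315 TPM, but exceeded MYL6B in only 3 of 8 libraries. Counted as reads, ACTA1 took 1.60% to 3.92% of a library and MYH8 0.0240% to 0.0652%, whereas MYL4 took at most 0.000118%.

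**Figure D1:**
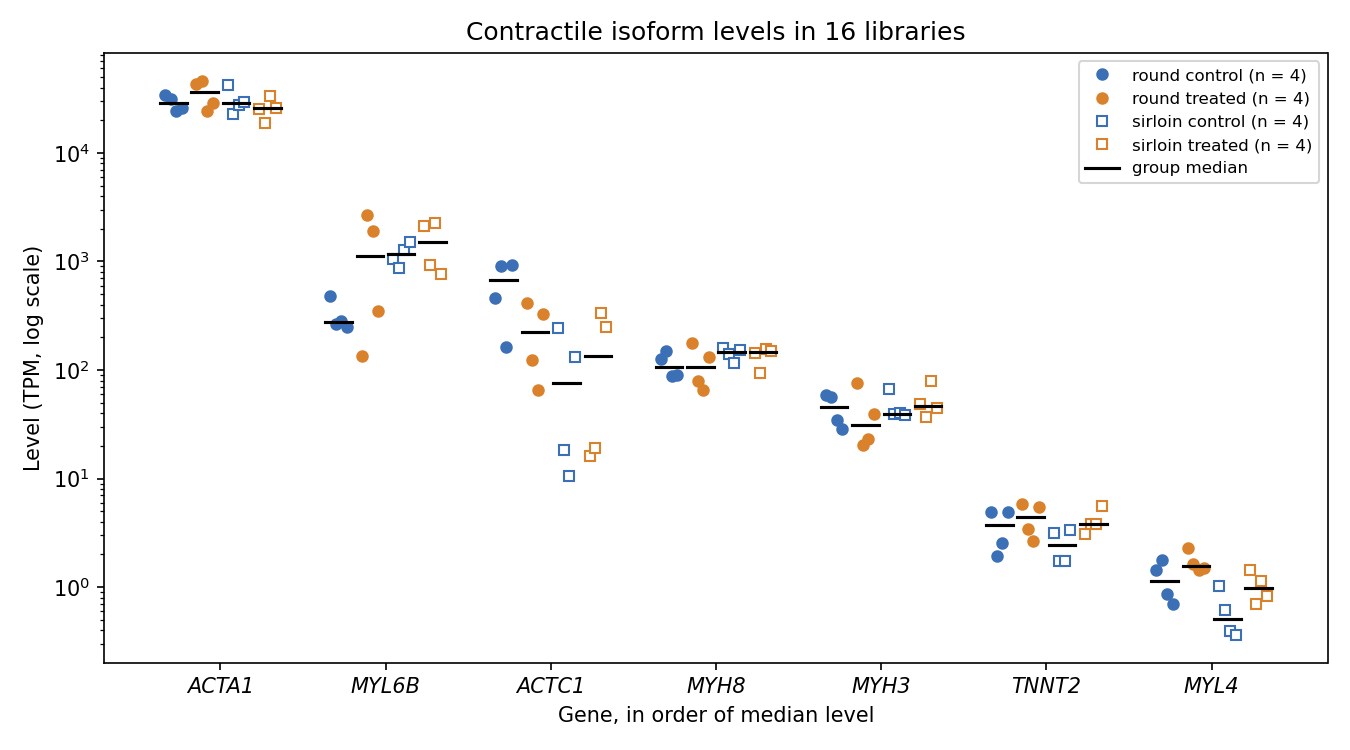
TPM of the 7 genes on a log axis, 1 point per library (round filled circles, sirloin open squares, control blue, treated orange) and a bar at each group's median. ACTA1 lies above all others, MYL4 and TNNT2 lie below 6 TPM, and ACTC1 and MYL6B spread most, from 10.4 to 921 and from 135 to 2660 TPM.

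Embryonic and neonatal myosin heavy chain were present in every library, as a small share of the myosin heavy chain transcripts. MYH3, the embryonic form, stood at 59.2, 56.4, 34.4 and 28.3 TPM in the 4 round control libraries and at 76.4, 20.4, 23.2 and 39.2 TPM in the round treated libraries. In sirloin muscle it stood at 66.6, 38.9, 40.1 and 38.5 TPM in the control group and at 48.4, 36.6, 78.8 and 44.7 TPM in the treated group. The diets overlapped in both muscles, and the highest values of round and of sirloin muscle came from different treated calves. MYH8, the neonatal form, measured 125, 148, 88.5 and 89.3 TPM in round control and 179, 80.0, 64.8 and 132 TPM in round treated muscle. In sirloin muscle MYH8 measured 158, 141, 116 and 152 TPM in the control group and 143, 94.5, 158 and 148 TPM in the treated group. MYH8 was thus the more abundant of the pair in every library, with a ratio of MYH8 to MYH3 between 2.00 and 3.96 and a median of 2.84.

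Set against MYH1, MYH2, MYH4 and MYH7, the fast and slow chains of adult fibres, MYH3 and MYH8 together made up 0.588% to 1.71% of the TPM of the 6 genes. The share was 1.30% ± 0.156 (SD, n = 4) in round control, 1.10% ± 0.423 in round treated, 1.41% ± 0.157 in sirloin control and 1.48% ± 0.265 in sirloin treated muscle. The lowest values were 0.588% and 0.914%, in round treated replicates 2 and 3, in which MYH7 took 69.5% and 39.1% of the same sum. In the other 6 round libraries MYH3 and MYH8 held 1.10% to 1.49%. Between the diets the mean share differed by -0.20 percentage points in round muscle (treated minus control, two-sided exact permutation test, p = 0.429) and by 0.07 in sirloin muscle (p = 0.857 by the same exact test). Sirloin exceeded round muscle by 0.24 points. The exact permutation test gave p = 0.0996 with muscle labels exchanged within each diet and p = 0.0859 with the sign exchanged within each calf.

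The same calculation was made for the other 3 families, and the p-values of the 12 comparisons, 4 families by the diet in each muscle and by muscle, were adjusted together. None of the 12 passed at an adjusted p of 0.05. With 4 calves against 4, the exact permutation test cannot give a p below 0.0286. After adjustment over 12 comparisons, a single diet difference of any size could therefore not have passed.

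ACTC1, the actin of the heart and of embryonic skeletal muscle, varied more than any other of the 7 genes, with an 88.1-fold range between its lowest and highest TPM. It measured 458, 906, 164 and 921 TPM in round control and 417, 123, 65.8 and 325 TPM in round treated muscle. In sirloin muscle the control libraries held 245, 18.5, 10.4 and 133 TPM and the treated libraries 16.1, 19.2, 338 and 250 TPM. The highest values were those of round control calves, but the diets overlapped, and in sirloin muscle of each diet a pair of calves lay below 20 TPM while the other pair lay above 100 TPM. ACTA1, the skeletal actin, measured 24110 to 46280 TPM in round and 18800 to 42330 TPM in sirloin muscle, a 2.46-fold range over all libraries.

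As a share of the sarcomeric actin TPM, ACTC1 therefore ran from 0.0377% to 3.39%. The 4 round control libraries held 1.33%, 2.79%, 0.665% and 3.39%, and the round treated libraries 0.948%, 0.265%, 0.272% and 1.12%. Of the treated values 2 lay below every control value, and the mean difference was -1.39 points (exact permutation test, p = 0.114, adjusted p = 0.274). In sirloin muscle the means were 0.286% ± 0.267 in the control and 0.530% ± 0.517 in the treated calves (n = 4 each), a difference of 0.24 points (exact permutation test, p = 0.343). Over both diets the share was 1.35% ± 1.15 in round and 0.408% ± 0.403 in sirloin muscle (n = 8 each). This difference of -0.94 points had an unadjusted p of 0.0306 with muscle labels exchanged within each diet and of 0.0469 with the sign exchanged within each calf (exact permutation tests), and adjusted p-values of 0.184 and 0.229.

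**Figure D2:**
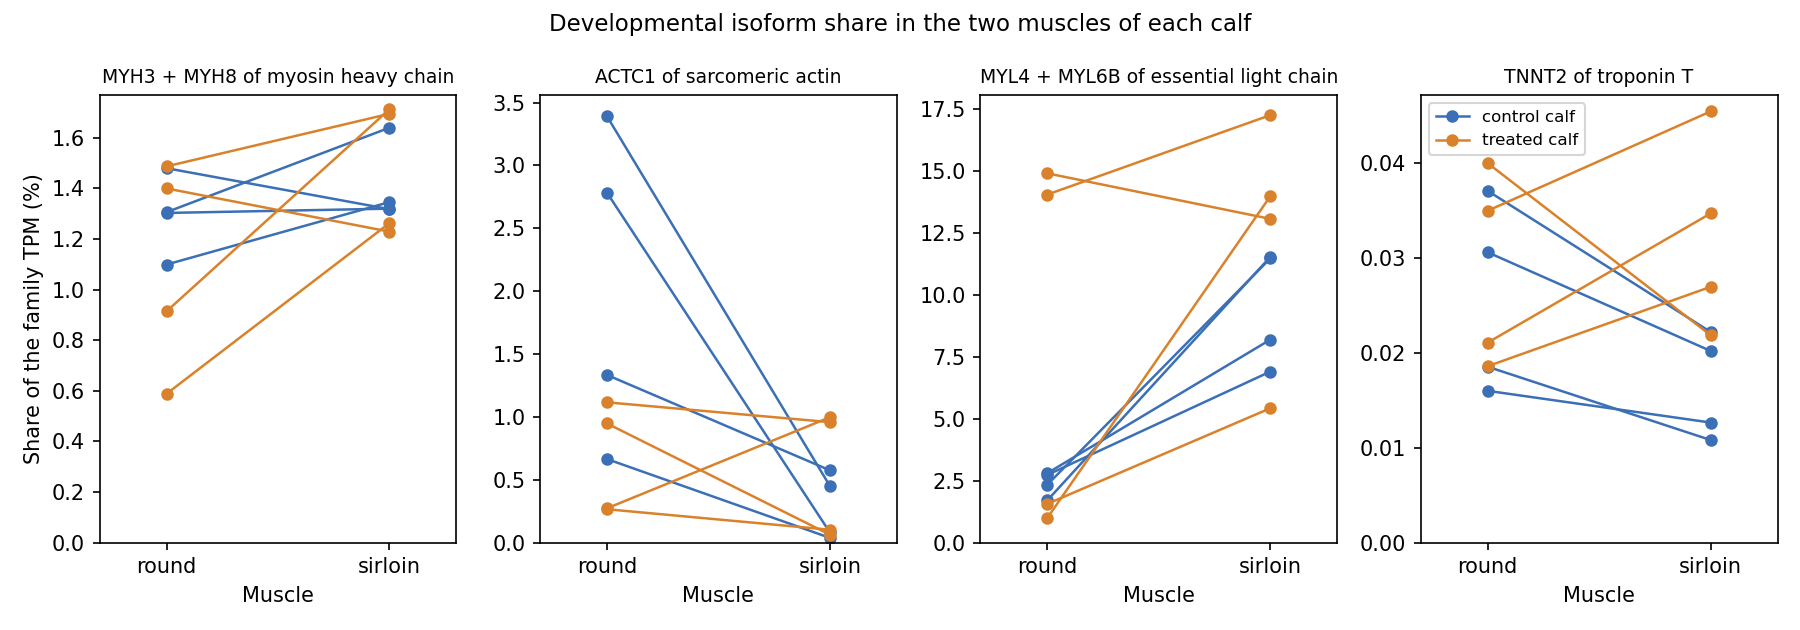
Share of each family's TPM held by the genes counted as developmental, in percent (vertical axis, from 0). The round and sirloin libraries of each of the 8 calves are joined by a line, control blue and treated orange. MYL6B, also a light chain of adult slow fibres, made up nearly all of the share of MYL4 and MYL6B. The ACTC1 share was higher in round muscle in 7 of 8 calves and the share of MYL4 and MYL6B higher in sirloin muscle in 7 of 8, whereas MYH3 with MYH8 stayed below 1.8% and TNNT2 below 0.05% in every library.

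The light chains differed sharply from each other. MYL4, the embryonic and atrial essential light chain, was close to the limit of detection, with 8 to 74 reads per library. It measured 1.43, 1.77, 0.870 and 0.693 TPM in round control and 2.305, 1.62, 1.44 and 1.51 TPM in round treated muscle. Sirloin control libraries held 1.02, 0.616, 0.393 and 0.363 TPM and sirloin treated libraries 1.43, 0.696, 1.13 and 0.831 TPM. Every calf had less MYL4 in its sirloin than in its round muscle, although the groups overlapped. At these levels MYL4 was at most 0.0184% of the essential light chain TPM.

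MYL6B, a light chain of slow and of developing fibres, was abundant by comparison. It measured 476, 268, 282 and 252 TPM in round control muscle and 135, 2660, 1906 and 347 TPM in round treated muscle. Replicates 2 and 3 of the treated group thus stood above the other 6 round libraries, and replicate 1 had the lowest value of all. In sirloin muscle MYL6B measured 1051, 878, 1272 and 1527 TPM in the control group and 2103, 929, 2244 and 760 TPM in the treated group. The lowest sirloin value, 760 TPM, came from the library that was high in adipocyte markers and exceeded the 6 low round libraries.

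MYL4 and MYL6B together, with MYL6B making up nearly all of the sum, held 2.39% ± 0.505 of the essential light chain TPM in round control and 7.88% ± 7.64 in round treated muscle (n = 4 each), the remainder being MYL1 and MYL3. The large SD of the treated group came from values of 0.989%, 14.9%, 14.1% and 1.56%. In sirloin muscle the shares were 9.53% ± 2.34 in the control and 12.4% ± 5.01 in the treated group. The diets differed by 5.49 points in round muscle (exact permutation test, p = 0.429) and by 2.91 points in sirloin muscle (exact permutation test, p = 0.343). Sirloin exceeded round muscle by 5.85 points (exact permutation test, p = 0.0298 with labels exchanged within diets and p = 0.0156 within calves, adjusted p = 0.184 and 0.188). With MYL4 alone as the developmental light chain the direction turned, to -0.0036 points (exact permutation test, p = 0.0633).

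Slow myosin was set beside the light chain share because MYL6B is also made in slow fibres. In the 6 round libraries with low MYL6B, MYH7 took between 8.06% and 22.1% of the myosin heavy chain TPM, and in round treated replicates 2 and 3 it took 69.5% and 39.1%. In sirloin muscle MYH7 took 11.6% to 28.3% and the light chain share was 5.43% to 17.3%. The part of slow fibres in the MYL6B level was not tested. The ratio of MYL6B to MYH7 TPM was 0.0458 to 0.506 in round and 0.250 to 0.709 in sirloin muscle, with medians of 0.185 and 0.548. MYL3, the other essential light chain of slow fibres, had the lower mean in sirloin muscle, and the ratio of MYL6B to MYL3 had a median of 0.187 in round and 1.34 in sirloin muscle.

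**Figure D3:**
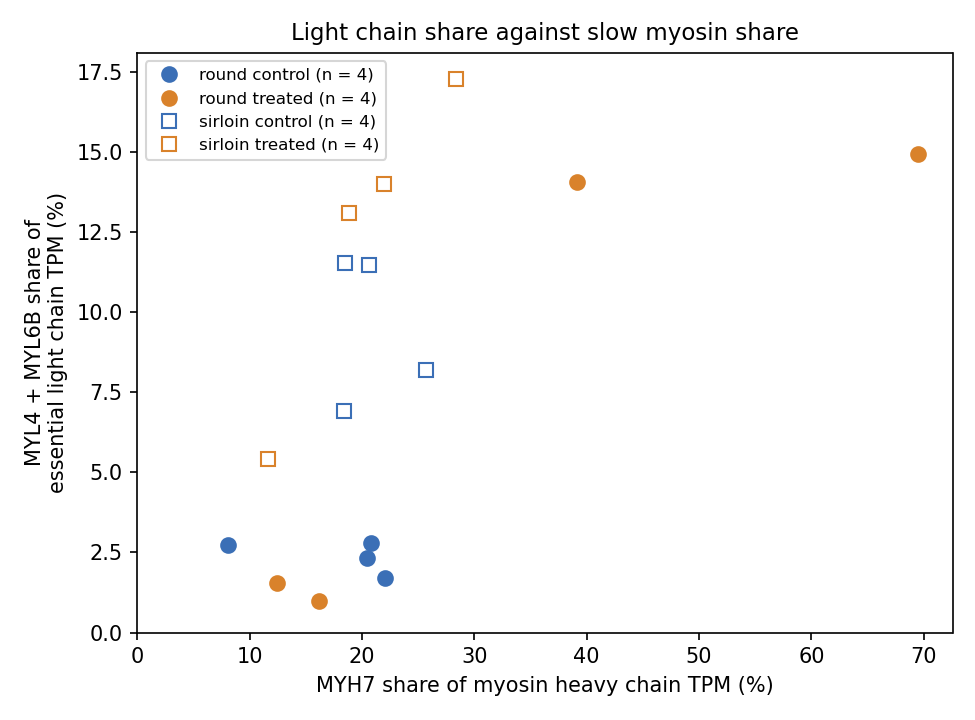
Share of MYL4 and MYL6B in the essential light chain TPM (percent, vertical) against the share of MYH7 in the myosin heavy chain TPM (percent, horizontal), 1 point per library, round filled circles and sirloin open squares. The round treated libraries with the highest MYH7 shares lie at 14.1% and 14.9%, the other 6 round libraries at 0.989% to 2.80%, and all 8 sirloin libraries at 5.43% or more with MYH7 shares of up to 28.3%.

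TNNT2, the troponin T of the heart and of embryonic skeletal muscle, was represented by 77 to 257 reads per library. It measured 4.92, 1.93, 2.53 and 4.95 TPM in round control and 5.81, 3.40, 2.63 and 5.43 TPM in round treated muscle. In sirloin muscle it measured 3.16, 1.75, 1.73 and 3.33 TPM in the control and 3.07, 3.82, 3.84 and 5.54 TPM in the treated group. Compared with TNNT1 and TNNT3, the slow and fast forms, it made up 0.0108% to 0.0454% of the troponin T TPM. In sirloin muscle the share was 0.0164% ± 0.00557 in the control and 0.0322% ± 0.0102 in the treated calves (n = 4 each), and 1 control value lay above the lowest treated value. That difference of 0.0158 points had the smallest p of the 8 diet comparisons (exact permutation test, p = 0.0571, adjusted p = 0.229). Its highest value came from the library with adipocyte markers, without which the difference was 0.0114 points.

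Diet was next tested on the counts of all genes with edgeR's quasi-likelihood test. None of the 7 genes was called in round muscle at an adjusted p of 0.05, where 4 of 21677 genes (0.0185%) were. None was called in sirloin muscle, where 2 of 21776 genes (0.00918%) were. DESeq2, the tool the paper names, called 46 genes in round and 13 in sirloin muscle, and limma-voom 1 and 0, in each case none of the 7. The control and treated libraries overlapped for all 7 genes in both muscles, whereas they were free of overlap for 382 of 21677 genes (1.76%) in round and 366 of 21776 (1.68%) in sirloin muscle. At an unadjusted p below 0.05, edgeR and DESeq2 each counted 2 of the 7 genes in round and 0 in sirloin muscle, and limma-voom counted 1 and 0. Over all genes edgeR counted 956 (4.41%) in round and 852 (3.91%) in sirloin muscle. At such shares, 0 of 7 called or without overlap does not set these genes apart from the rest.

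The diet differences in round muscle were largest for MYL6B and ACTC1. MYL6B was 1.79 ± 0.70 higher on the log2 scale in treated calves (SE, edgeR adjusted p = 0.864), a value that was 1.18 without treated replicate 2, 1.46 without treated replicate 3 and 1.08 by limma-voom. No fit left out both of these replicates, which held 1098 and 862 CPM. Treated replicates 1 and 4 held 64.1 and 164 CPM, against 113.5 to 251.3 CPM in the controls. ACTC1 was lower by 1.44 ± 0.62 (log2 change -1.44, edgeR adjusted p = 0.864), with values from -1.91 to -1.10 when single calves were left out. The other 5 genes differed little against their errors: MYL4 by 0.45 ± 0.46, MYH3 by -0.21 ± 0.43, ACTA1 by 0.19 ± 0.32, TNNT2 by 0.15 ± 0.45 and MYH8 by -0.04 ± 0.35. In sirloin muscle the log2 changes were 0.58 ± 0.53 for MYL4, 0.51 ± 0.36 for TNNT2, -0.42 ± 0.27 for ACTA1, 0.41 ± 1.10 for ACTC1, -0.23 ± 0.22 for MYH8, 0.18 ± 0.36 for MYL6B and -0.01 ± 0.31 for MYH3. All 7 adjusted p-values of edgeR in sirloin muscle were 0.876 or more. The estimates for MYL4, MYL6B and TNNT2 were above 0 in both muscles, those for MYH3 and MYH8 below 0 in both, and those for ACTC1 and ACTA1 of opposite sign. Several of these signs depended on a single calf, among them that of ACTC1 in sirloin muscle, which was -0.32 without treated replicate 3.

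Whether the diet difference itself depended on the muscle was tested with an interaction term over all 16 libraries. None of the 7 genes and 0 of 22877 genes (0%) were called by edgeR, with 637 genes (2.78%) at an unadjusted p below 0.05, none of the 7 among them, and 0 genes called by DESeq2 or limma-voom, against 1 gene, none of the 7, with the calf as a block. The difference of diet effects was 1.88 ± 1.41 for ACTC1 (sirloin minus round, SE) and -1.60 ± 0.87 for MYL6B. When the counts of both muscles were summed for each calf, edgeR called 1 of 22877 genes (0.00437%), DESeq2 46 and limma-voom 0, in each case none of the 7. None of the 7 had an unadjusted p below 0.05 by edgeR, against 881 of all genes (3.85%). ACTC1 then differed by -0.98 ± 0.56 and MYL6B by 0.64 ± 0.36, with an edgeR adjusted p of 0.933 for both.

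**Figure D4:**
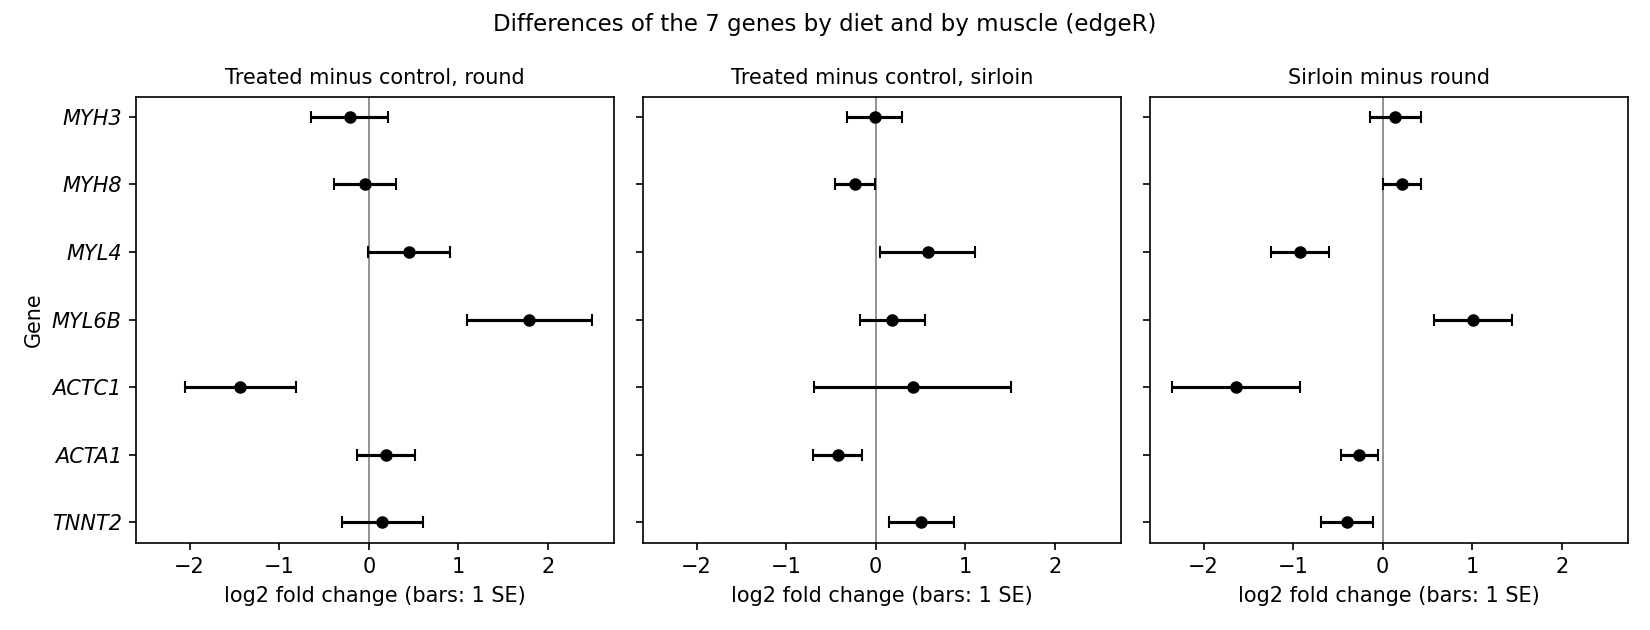
Log2 fold changes of the 7 genes (horizontal axis) with bars of 1 SE, from edgeR, for treated minus control in round muscle (8 libraries), in sirloin muscle (8 libraries) and for sirloin minus round muscle (16 libraries). MYL6B and ACTC1 lie farthest from 0 in round muscle, at 1.79 and -1.44, and ACTC1, MYL6B and MYL4 in the muscle comparison, at -1.64, 1.01 and -0.92.

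Between the muscles, edgeR called 14 of 22877 genes (0.0612%), DESeq2 83 and limma-voom 21, in each case none of the 7. Of the 7 genes 3, MYL4, MYL6B and ACTC1, had an unadjusted p below 0.05 by edgeR, DESeq2 and limma-voom alike, against 1447 (6.33%), 1228 and 1278 of all genes. MYL4 was lower in sirloin muscle by 0.92 ± 0.33 on the log2 scale (log2 change -0.92, edgeR adjusted p = 0.695). Within calves, the log2 ratio of sirloin to round CPM of MYL4 lay between -1.43 and -0.46 and was negative in 8 of 8. ACTC1 was lower in sirloin muscle in 7 of 8 calves, by -1.64 ± 0.72 over all (edgeR adjusted p = 0.765) and by -2.42 with limma-voom, and its log2 ratios within calves ranged from -5.54 to 2.24. Treated replicate 3 was the exception, with 4.73-fold more ACTC1 in its sirloin than in its round muscle, while control replicate 2 had 46.4-fold less. MYL6B was higher in sirloin muscle in 7 of 8 calves, by 1.01 ± 0.44 (edgeR adjusted p = 0.76), the exception being treated replicate 2 with 2.92-fold less in its sirloin muscle.

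With the calf as a replicate block the muscle difference called 109 genes in place of 14, still none of the 7. MYL4 then came to -0.96 ± 0.24 (edgeR adjusted p = 0.114), ACTC1 to -2.46 ± 0.75 (edgeR adjusted p = 0.193) and MYL6B to 1.30 ± 0.44 (edgeR adjusted p = 0.248). MYH8 was higher in sirloin muscle in 7 of 8 calves and MYH3 in 6 of 8, by 0.22 ± 0.21 and 0.14 ± 0.28 without the block. TNNT2 was lower in sirloin muscle in 6 of 8 calves (-0.40 ± 0.29) and ACTA1 in 5 of 8 (-0.26 ± 0.20). These 4 genes had unadjusted p-values of 0.191 to 0.624 by edgeR without the block. With the calf as a block their unadjusted edgeR p-values were 0.0967 to 0.32.

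Calves high in a gene in one muscle were compared with their own other muscle by Pearson's r and Spearman's rho of log2 CPM over the 8 calves, with p-values adjusted over the 7 genes. MYL4 gave r = 0.876 (exact permutation p = 0.00253, adjusted p = 0.0177) and rho = 0.786 (exact permutation p = 0.0279, adjusted p = 0.196). Without the 2 calves farthest from the median in round muscle, r was 0.599, so that the relation rests in part on control replicates 3 and 4, the lowest in both muscles. TNNT2 followed with r = 0.671 and rho = 0.429 (exact permutation p = 0.0777 and 0.299, adjusted p = 0.272 and 0.698). The other 5 genes had r between -0.212 and 0.439, and ACTC1 and MYL6B, which varied most, were at -0.008 and -0.087, with adjusted exact permutation p-values of 0.671 or more. A calf's ACTC1 or MYL6B in one muscle therefore had no correlation with the other muscle that 8 calves could show.

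Among themselves, MYH3 and MYH8 ran together. Over the 8 round libraries their log2 CPM correlated with r = 0.941 and rho = 0.952 (exact permutation p = 0.000794 and 0.00114, adjusted over 42 relations to 0.0333 and 0.0479), and r was 0.901 without the 2 calves farthest from the median. In sirloin muscle the same pair gave r = 0.678 and rho = 0.524 (exact permutation p = 0.0624 and 0.197, adjusted p = 0.262 and 0.393). No other of the 42 relations, 21 pairs in each muscle, passed after adjustment. The smallest p among the others belonged to MYH3 and ACTA1 in sirloin muscle, at r = 0.822 and rho = 0.786 (exact permutation p = 0.00461 and 0.0279, adjusted p = 0.0969 and 0.196), with r = 0.688 without the 2 farthest calves. In round muscle MYL6B ran against MYH8 with r = -0.835 and rho = -0.667 (exact permutation p = 0.01 and 0.0831, adjusted p = 0.141 and 0.291), and r was -0.371 without treated replicates 2 and 3, on which the relation rests. MYH3 and MYH8 lie in the same cluster of myosin genes, with the 3 fast chains between them, in the annotation used for names. What part this position, or reads that match several MYH genes, had in the relation of MYH3 and MYH8 was not tested. The relations are over libraries that differ in depth, and the diet groups within a muscle held too few calves for a value of their own.

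Over all 16 libraries, the genes most like each of the 7 were taken from 12315 genes with a mean of at least 1 CPM, by Pearson's r of log2 CPM. These values are a description, since the 16 libraries come from 8 calves and share depth and tissue makeup. MYH3 and MYH8 were each other's nearest gene (r = 0.871), RABL6 was near both, with 0.818 and 0.803, and next to these came a gene without a name, ID 107133128, for MYH3 (0.823) and VTI1B for MYH8 (0.794). MYL6B was nearest to ZNF385C (r = 0.862), RRAGB (0.832) and ATP2A2, the calcium pump of slow and cardiac muscle (0.823). TNNT2 was nearest to RPS29, a ribosomal protein (r = 0.877), CHCHD7 (0.864) and CHRNG, the fetal subunit of the acetylcholine receptor (0.831). MYL4 was nearest to DNHD1 (0.848), PCK2, a mitochondrial enzyme of gluconeogenesis (0.837), and NAT10, an RNA acetyltransferase (0.818). ACTC1 was nearest to RMDN3 (0.799), ALDH18A1, an enzyme of proline synthesis, and FAM118A (both 0.779), and ACTA1 to LMO7 (0.782), UBE2E2 (0.751) and WBP1 (0.736).

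The adult sarcomere genes that surround these isoforms were tested in the same fits. Of 20 adult partners, 0 were called in any of the 5 comparisons by edgeR, with 3 at an unadjusted p below 0.05 in round muscle by diet, 0 in sirloin muscle, 1 between the muscles, 2 in the interaction and 0 on summed counts, where the shares over all genes were 4.41%, 3.91%, 6.33%, 2.78% and 3.85%. Their median log2 difference by diet was 0.14 in round and -0.25 in sirloin muscle, against 0.02 and 0.03 over all genes. The 3 in round muscle were TNNI1, the slow troponin I (1.26 ± 0.50 on the log2 scale), MYH7 (1.15 ± 0.51) and TNNC1, the slow troponin C (1.09 ± 0.49), each with an edgeR adjusted p of 0.864. These log2 changes were above 0, as was that of MYL6B. MYL2, TNNT1 and MYL3, other slow genes, differed by 0.86 ± 0.40, 0.67 ± 0.40 and 0.20 ± 0.31. In the round treated libraries MYH7 measured 2954, 11860, 3769 and 1434 TPM, and TNNI1 ranged from 784 to 6561 TPM. What part single calves had in these differences was not tested. Between the muscles, the partner with an unadjusted edgeR p below 0.05 was MYL3, lower in sirloin muscle by 1.16 ± 0.27 (log2 change -1.16, edgeR adjusted p = 0.214).

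Other genes of developing muscle were listed alongside, among them receptor subunits of the immature synapse, fusion proteins, myogenic factors and imprinted growth genes. Of 20 such genes 18 could be tested and 0 were called in any comparison by edgeR, with an unadjusted p below 0.05 for 2 between the muscles and for 0 in the other comparisons, against the same shares over all genes. Their median log2 difference was 0.12 by diet in round muscle, -0.11 by diet in sirloin muscle and -0.21 between sirloin and round muscle, against 0.02, 0.03 and -0.004 over all genes. The pair with the smallest p between the muscles was MYMX, a protein of myoblast fusion (-1.02 ± 0.36, edgeR adjusted p = 0.695), and IGF2, the fetal growth factor (0.49 ± 0.20, edgeR adjusted p = 0.756). MYMX was low, at 0.159 to 1.25 TPM, whereas IGF2 measured 171 to 637 TPM in every library. H19, an imprinted non-coding RNA, reached 2340 to 20170 TPM, CHRNG 0.923 to 10.9 TPM and MYOG, the myogenic factor of differentiation, 6.23 to 63.8 TPM.

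Marker lists of other cells held 0 called genes in any comparison by edgeR. At an unadjusted p below 0.05 by diet they held in round muscle 1 of the 2 cardiac, 1 of 6 smooth muscle, 0 of 6 skeletal muscle, 2 of 4 red blood cell, 0 of 4 adipocyte and 1 of 5 fibroblast and tendon genes that could be tested, where the share over all genes was 4.41%. In sirloin muscle, where it was 3.91%, they held 2 of 5 red blood cell genes, 4 of 4 adipocyte genes and 0 of the 4 cardiac, 6 smooth muscle, 6 skeletal muscle and 5 fibroblast and tendon genes. The adipocyte genes rest on treated replicate 4: in the sirloin treated group FABP4, a fatty acid carrier, had a median of 2.47 and a highest value of 2825 TPM, and ADIPOQ, the adipocyte hormone adiponectin, 0.0759 and 677.6 TPM. The cardiac gene was MYH6, which was highest in a treated library, at 562 TPM. Between the muscles they held 3 of the 6 smooth muscle, 3 of the 4 adipocyte and 1 of the 5 fibroblast and tendon genes, where the share over all genes was 6.33%. Among these adipocyte genes, ADIPOQ and PLIN1 had log2 changes of 4.26 and 2.38 (sirloin minus round). Their median TPM was nevertheless higher in round than in sirloin muscle, at 0.215 against 0.084 and 1.025 against 0.858. Smooth muscle markers summed to 3397 to 8519 TPM per library, but nearly all of this was DES, which is also made by skeletal muscle, at 3234 to 8419 TPM. TAGLN, the highest of the other smooth muscle markers, reached at most 109 TPM. Red blood cell genes summed to at most 36.3 TPM.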

How the data were processed

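Reads were processed by the authors, whose paper names Trimmomatic, SortMeRNA, HISAT2 with Bowtie2 and StringTie after removal of rRNA and globin RNA, whereas the submitters' processing notes name FastQC, Trimmomatic, STAR, featureCounts, DESeq2 and the build ARS-UCD1.2 and the labels state poly(A) selection. This conflict is not settled here. The deposited counts are whole reads per gene, not normalized, and the deposited normalized values, which sum to 999756 to 1000000 per library, were used as the authors' TPM. Deposited comparison tables hold the authors' fold changes and p-values and were not used. Gene IDs were matched to symbols through ARS-UCD2.0, for names only (30762 of 34109, 90.2%).

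Genes with at least 1 count in any library were tested with edgeR 4.0.16 (TMM, glmQLFit, glmQLFTest) in R 4.3.3, two-sided, with Benjamini-Hochberg adjustment over all genes and a threshold of 0.05. The SE was derived from the log2 change and its F statistic. Shares of TPM were compared by two-sided exact permutation tests (numpy 2.4.6), and correlations by exact permutation of the calves. Log2 CPM used a prior count of 2. Alternatives were DESeq2 1.42.0, limma-voom 3.58.1, RLE factors, filterByExpr, all 16 libraries in 1 fit, the calf as a block, shares of CPM and leaving out each calf. The edgeR, DESeq2 and limma-voom fits at their main settings, and the permutation test of shares with labels exchanged, were tested on simulated data. RLE factors, filterByExpr, all 16 libraries in 1 fit, the blocks and leaving out each calf were not.

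Libraries were grouped by the labels. The animal number in the labels is the same for the round and sirloin library of a calf. After group means were removed, the muscles of a calf correlated with 0.25 to 0.595, and 8 of 8 round libraries correlated best with their own calf's sirloin library, although 1 correlation with another calf reached 0.281. Replicate numbers shared between the diets belong to different calves (-0.154 to 0.188) and pair nothing. Named were the 7 genes, the other genes of the 4 isoform families, up to 4 examples of each gene list with the smallest p, marker genes, and the 3 genes most like each of the 7. H19 and MYOG are further examples, chosen after their values were seen. Members and lists were chosen with earlier results of these data known. Depth limits MYL4, at 8 to 74 reads, more than the others.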

Additional observations from a re-analysis of the deposited data

Results flagged for a closer look

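In groups of 4 libraries, a library was marked when its gap to the next value was a larger part of the group's range than Dixon's 95% critical value. Of 44 groups of member levels and shares tested, 3 held such a library, and chance alone marks about 1 in 20. MYH3 stood at 66.6 TPM in sirloin control replicate 1, with the other 3 libraries of the group between 38.5 and 40.1 TPM. MYL6B stood at 476 TPM in round control replicate 1, with the others between 252 and 282 TPM, and this calf also had the lowest MYH7 share of its group, 8.06%. The share of MYH3 and MYH8 in the myosin heavy chain TPM was 1.64% in sirloin control replicate 4, against 1.32% to 1.35% in the others. The cause of these values was not tested.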

How the results depend on the processing

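None of the 7 genes was called under any of the 67 alternative counts, which covered DESeq2, limma-voom, RLE factors, filterByExpr, the replicate block, all 16 libraries in 1 fit and each calf left out. Of 469 alternative log2 changes 446 kept their direction and 23 turned, all of them on leaving out a calf, and the cause was not tested. The values then ran, for the diet in round muscle, from -0.78 to 0.0108 for MYH3, -0.38 to 0.14 for MYH8 and -0.12 to 0.38 for TNNT2. For the diet in sirloin muscle they ran from -0.29 to 0.27 for MYH3, -0.0817 to 0.41 for MYL6B and -0.32 to 1.42 for ACTC1. Between the muscles MYH3 ran from -0.10 to 0.43. In the interaction MYH3 ran from -0.25 to 0.82, MYH8 from -0.46 to 0.13 and MYL4 from -0.0301 to 0.43. On summed counts MYH3 ran from -0.34 to 0.13 and ACTA1 from -0.20 to 0.0742. Of 115 alternative shares 110 kept their direction and none passed after adjustment. For the diet this was nearly fixed in advance, since with at most 4 calves per diet a single difference could not pass. The troponin T share by diet in round muscle ran from -0.000671 to 0.00694 points and the myosin heavy chain share by diet in sirloin muscle from -0.0101 to 0.151 points when a calf was left out. With MYL4 alone, an alternative added after seeing the data, the essential light chain share between the muscles turned from 5.85 to -0.0036 points, since MYL6B was left out. With the calf as a block (replicate block) the muscle difference called 109 genes in place of 14 and the interaction 1 in place of 0, by diet the block on shared replicate numbers called 2 genes in round and 0 in sirloin muscle in place of 4 and 2, and it changed no call of the 7 genes. The block by diet joins different calves that share only a number, so its values rest on an arbitrary pairing. For MYL6B by diet in round muscle that block gave 1.19 and limma-voom 1.08 in place of 1.79. Depth limits MYL4 and TNNT2 most, at 8 to 74 and 77 to 257 reads per library.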
